A study of Mus musculus with 12 samples.

Results

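The JNK and p38 cascade kinases followed here are *Map3k1*, *Map3k5*, *Map3k12*, *Map3k13*, *Map2k4*, *Map2k6*, *Mapk8*, *Mapk9*, *Mapk10* and *Mapk12*. They were chosen by name as the members of these cascades on a NanoString® panel, and all 10 were in the table of 770 genes. The study silenced *Dusp4*, a phosphatase of MAP kinases, in a pair of mouse liver cancer cell lines to ask how the loss of this brake changes gene expression. The panel, Mouse PanCancer Pathways, was run on total RNA of 12 samples and counts fluorescent barcodes bound to each mRNA without amplification. The 4 groups had 3 biological replicates each: AKT Cre/NRAS cells with *Dusp4* siRNA, AKT Cre/NRAS cells with the negative control pool (SCR), AKT/NRAS cells with *Dusp4* siRNA, and AKT/NRAS cells with SCR.

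AKT/NRAS is a line from a murine hepatocellular carcinoma (HCC) induced by hydrodynamic tail vein injection of floxed, myristoylated AKT together with NRAS G12V. Cells of this line transfected with Cre, which deletes the floxed AKT, gave AKT Cre/NRAS, so all groups carried NRAS G12V and the lines differed in AKT and in their history after Cre. All samples were lipofected with an siRNA pool, either against *Dusp4* or without a target, and the transfection was repeated before harvest. Each line stands for 1 derivation, so a difference between the lines is a difference between these cultures.

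JNK and p38 are the stress-activated MAP kinases. Signals such as inflammatory cytokines, oxidants and DNA damage activate MAP kinase kinase kinases (MAP3Ks), which phosphorylate MAP kinase kinases (MAP2Ks), which in turn phosphorylate JNK or p38 on a threonine and a tyrosine, and dual-specificity phosphatases remove these phosphates. In the liver the cascades are known for their part in hepatocyte death, regeneration and carcinogenesis. The panel measured mRNA, and kinase activity was not measured.

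Values are given as normalized counts, the deposited barcode counts after scaling to 15 reference genes. Fold changes are on the log2(normalized count + 1) scale with standard errors (SE), and a change is an adjusted p under 0.05 from limma. The p values rest on the spread between replicate libraries within the groups of a comparison. The summed counts above the floor ranged from 641790 to 1081646 per library. *Dusp4* itself was at 4126, 4174 and 3769 normalized counts in AKT Cre/NRAS siRNA libraries, against 6343, 5843 and 4483 in AKT Cre/NRAS SCR libraries, and at 350.2, 389 and 371 in AKT/NRAS siRNA libraries, against 1273, 1226 and 1186 in AKT/NRAS SCR libraries. It was lower after siRNA without overlap in both lines, with a log2 fold change of -0.45 in AKT Cre/NRAS (limma adjusted p = 0.0178, passed in 5 of 8 scalings and 0.00098 with the 5 reference genes ranked first) and of -1.73 in AKT/NRAS (limma adjusted p = 1.13e-06, passed in 8 of 8). Of the hepatocyte and progenitor markers, *Ghr*, *Sox9* and *Spp1* were above the floor in all groups while *Prom1* was at the floor in AKT/NRAS. The endothelial marker *Kdr*, the leukocyte marker *Csf1r*, and the fibroblast markers *Col1a2* and *Pdgfrb* were at the floor everywhere, although *Cd14* and *Pdgfra* were not. The summed level of 4 listed fibroblast markers on the panel was 496 to 567 in AKT Cre/NRAS siRNA, 323 to 462 in AKT Cre/NRAS SCR, 115 to 138 in AKT/NRAS siRNA and 134 to 159 in AKT/NRAS SCR libraries, and its part in the results was not tested. This sum includes *Col1a2* and *Pdgfrb* at the value of the floor. Only *Pdgfra* was above the floor in every library, and *Col1a1* was so in all 3 libraries of AKT/NRAS SCR alone. The AKT Cre/NRAS SCR libraries stood apart in the log2 ratio of a ribosomal mRNA to a long mRNA, *Rpl19* to *Polr2a*, which ran from 4.72 to 5.03 in AKT Cre/NRAS siRNA libraries and from 5.48 to 6.88 in AKT Cre/NRAS SCR libraries. It lay between 3.86 and 3.92 in AKT/NRAS siRNA libraries and between 3.81 and 3.87 in AKT/NRAS SCR libraries. It was thus higher in every AKT Cre/NRAS library than in any AKT/NRAS library.

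Of the 10 kinases, 6 were above the common floor of 27.1 normalized counts in all 12 libraries. These were the MAP3Ks *Map3k1* and *Map3k5*, both MAP2Ks, and the JNK genes *Mapk8* and *Mapk9*, with between 315 and 2739 barcodes per library. The other 4 are known best from other tissues. *Map3k12* and *Map3k13* encode the leucine zipper kinases of injured neurons, *Mapk10* encodes JNK3, which is found mainly in brain, heart and testis, and *Mapk12* encodes p38 gamma, which is abundant in skeletal muscle. *Map3k12* and *Mapk10* stood at the floor in all 12 libraries. *Mapk12* exceeded the deposited floor in 1 library, AKT Cre/NRAS SCR replicate 2, with 27 barcodes, and after scaling it did not exceed the common floor there. *Map3k13* was at the floor in 9 of 12 libraries and had 25 and 39 barcodes in AKT/NRAS siRNA replicates 1 and 2 and 24 in AKT/NRAS SCR replicate 3. For these 4 genes the assay gives an upper limit near the floor, and expression below it was not detectable.

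In AKT Cre/NRAS cells, 4 of the 6 measured kinases rose after *Dusp4* silencing, 1 fell and 1 did not pass the test. The rises were those of *Map3k1*, *Map3k5*, *Map2k4* and *Mapk9*, by 0.36 to 0.55 on the log2 scale, and the fall was that of *Mapk8*. The fold changes of the JNK genes thus had opposite signs, except with the 5 reference genes ranked first, where *Mapk8* was at 0.10. *Mapk8* and *Mapk9* each passed the test in 5 of 8 scalings. On the whole panel 45.9% of 503 tested genes changed, 40.6% upwards and 5.37% downwards, so the number of rises among the kinases was read against a panel on which rises were common. The median log2 fold change was 0.41 for the 6 kinases and 0.23 for all tested genes.

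*Map3k1* encodes MEKK1, a MAP3K of the JNK cascade that also carries a ubiquitin ligase domain. Its normalized count was 1703, 1666 and 1484 in AKT Cre/NRAS siRNA libraries, against 1321, 1088 and 928 in AKT Cre/NRAS SCR libraries. Every siRNA library lay above every SCR library, and the log2 fold change was 0.55 (SE 0.12, limma adjusted p = 0.00738). *Map3k5* encodes ASK1, which responds to oxidants and feeds both JNK and p38. It was at 644, 575 and 555 after siRNA, against 468, 428 and 378 after SCR, again without overlap, with a log2 fold change of 0.48 (SE 0.11, limma adjusted p = 0.00791).

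*Map2k4* encodes MKK4, which activates JNK and can activate p38. It stood at 665, 604 and 624 in siRNA libraries and at 483, 517 and 474 in SCR libraries, and the groups were apart by a log2 fold change of 0.36 (SE 0.09, limma adjusted p = 0.0125). *Map2k6* encodes MKK6, which acts on p38. Its values were 2261, 2151 and 2124 after siRNA and 2295, 2453 and 2649 after SCR. Although all siRNA values were below all SCR values, the log2 difference of -0.18 (95% confidence interval -0.37 to 0.01) did not pass the test (limma adjusted p = 0.113).

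*Mapk8* encodes JNK1, one of the 2 JNK genes that are expressed in most tissues. Its normalized count was 406, 395 and 425 in AKT Cre/NRAS siRNA libraries, against 471, 510.4 and 589 in AKT Cre/NRAS SCR libraries. It was lower in every siRNA library, with a log2 fold change of -0.35 (SE 0.11, limma adjusted p = 0.0257). *Mapk9* encodes JNK2, the other widely expressed JNK. It was at 767, 791 and 723 after siRNA, against 602, 561 and 489 after SCR, a log2 fold change of 0.47 (SE 0.10, limma adjusted p = 0.00656). In all 6 kinases the groups did not overlap, which was so in 60.0% of the tested genes.

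**Figure D1:**
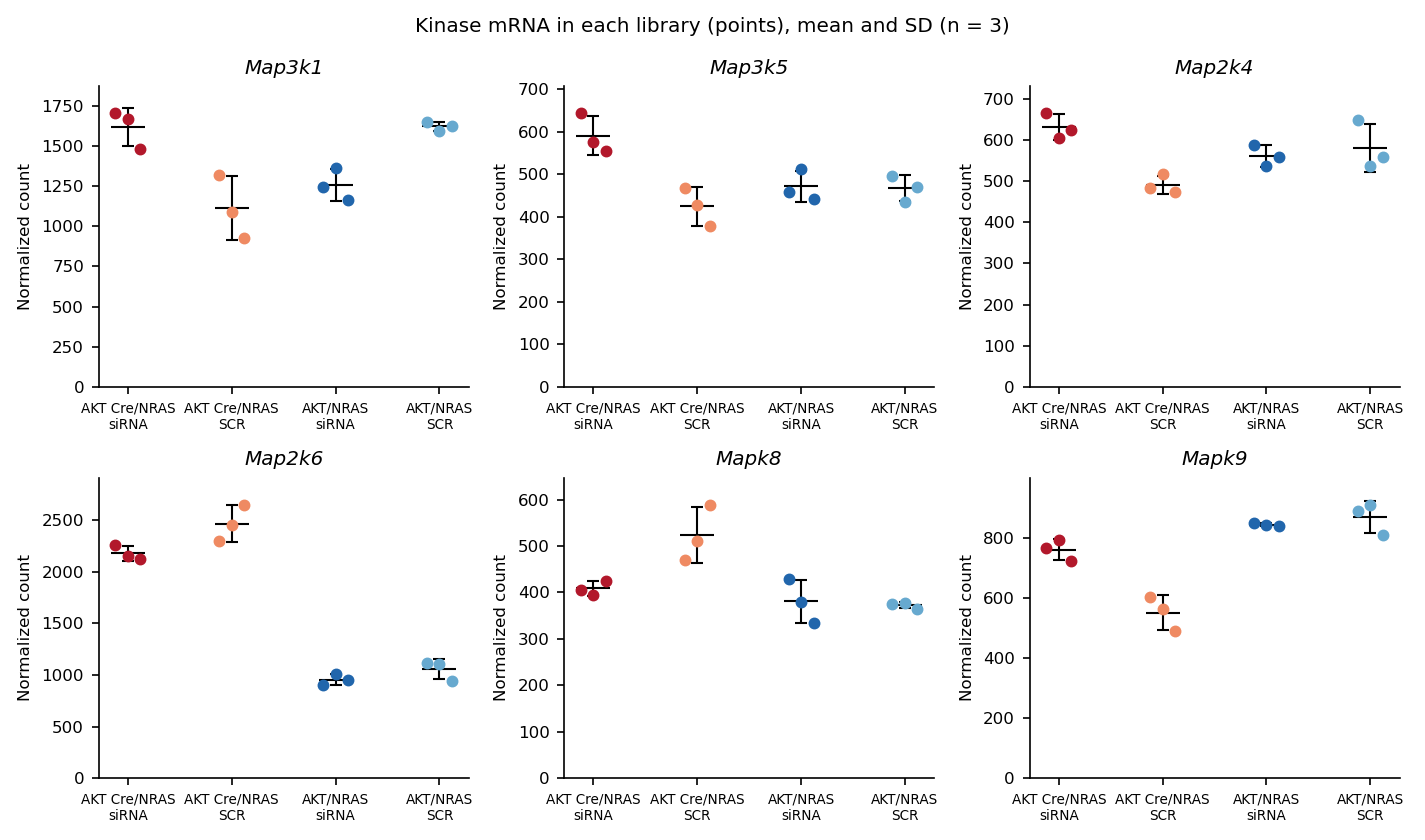
Normalized counts (linear axes from 0) of the 6 kinases above the floor in the 12 libraries, with 1 point per library, the mean and the SD (n = 3) in each of 4 groups. In AKT Cre/NRAS the siRNA and SCR points do not overlap for any of the 6, *Mapk8* is lower and *Mapk9* higher after siRNA with this scaling, and *Map2k6* is highest in both AKT Cre/NRAS groups.

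The calls changed with the scaling, which moved the median of all genes to 0.67 with the 5 reference genes ranked first and to -0.10 after re-centring. With the deposited values, which are scaled to the positive controls only, none of the kinases passed the test (limma, and none at an unadjusted p under 0.05), and re-centring each library on its median left falls of *Mapk8* (-0.71) and *Map2k6* (-0.53) alone (limma adjusted p = 0.0151 for each). Leaving out siRNA replicate 1 ended the calls of *Map3k5*, *Map2k4* and *Mapk8* (2 kinases called), leaving out siRNA replicate 3 those of *Map2k4* and *Mapk8* (3 called), and leaving out siRNA replicate 2 or SCR replicate 2 that of *Mapk8* (4 called), while *Map2k6* passed without SCR replicate 1 (6 called). SCR replicate 3, the library with the highest *Rpl19* to *Polr2a* ratio of 6.88, had the highest *Mapk8* and *Map2k6* and the lowest *Map3k1*, *Map3k5*, *Map2k4* and *Mapk9* of the SCR group. Without it the same number of kinases, 5, was called. Without SCR replicates 2 and 3, the libraries with the highest ratios, 4 were called, *Map3k1* was at 0.29 (limma adjusted p = 0.0453) and *Mapk8* lost its call at -0.20 (limma adjusted p = 0.150), in a fit with 1 SCR library that was chosen after seeing the data. The part of this ratio in the kinase values was not tested. In bulk RNA, fewer cells that express a gene and less of its RNA per cell cannot be told apart.

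In AKT/NRAS cells the fall of *Dusp4* itself was larger (interaction term 1.28, limma adjusted p = 0.000728). Among the kinases *Map3k1* alone changed, and it fell. Thus 1 of 7 tested kinases was called (0 up), against 17.3% of 496 genes on the panel (5.44% up and 11.9% down). The median was -0.04 for the kinases and -0.03 for all tested genes.

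The normalized count of *Map3k1* was 1242, 1364 and 1164 in AKT/NRAS siRNA libraries, against 1647, 1592 and 1625 in AKT/NRAS SCR libraries. All siRNA values were lower than all SCR values, and the log2 fold change was -0.37 (SE 0.06, limma adjusted p = 0.00816). It was also the only one of the 7 kinases whose groups did not overlap, against 34.7% of the tested genes. *Map3k5* was at 459.5, 514 and 443 after siRNA and at 496, 436 and 469.9 after SCR, a log2 difference of 0.01 (95% confidence interval -0.16 to 0.19).

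Of the MAP2Ks, *Map2k4* stood at 589, 536 and 559 after siRNA and at 648, 537 and 558 after SCR. *Map2k6* stood at 903, 1012 and 954 after siRNA and at 1120.5, 1107 and 946 after SCR. Their groups overlapped, and the log2 differences were -0.05 (95% confidence interval -0.23 to 0.13) for *Map2k4* and -0.14 (-0.32 to 0.03) for *Map2k6*. The JNK genes overlapped too. *Mapk8* was at 428, 380.1 and 335 in siRNA libraries and at 376, 378 and 365 in SCR libraries, with a log2 difference of 0.02 (95% confidence interval -0.18 to 0.23). *Mapk9* was at 848, 841 and 838 in siRNA libraries and at 888, 909 and 809.8 in SCR libraries, with a difference of -0.04 (95% confidence interval -0.16 to 0.07). *Map3k13*, which entered this fit through its 3 libraries just above the floor, had a log2 difference of 0.16 (95% confidence interval -0.10 to 0.41).

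The fall of *Map3k1* passed the test in 7 of 8 scalings, the exception being the deposited values (-0.04, limma adjusted p = 0.788). It lost its call when the spread was estimated over all 4 groups (limma adjusted p = 0.0801) or with Benjamini-Yekutieli adjustment (limma adjusted p = 0.0554).

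Whether the lines responded differently was tested with an interaction term, the log2 fold change after siRNA in AKT Cre/NRAS minus that in AKT/NRAS, over all 12 libraries. Of 7 tested kinases, 4 had a positive term and 1 a negative term past the threshold, against 45.3% of 525 genes on the panel (40.6% positive and 4.76% negative). The term of *Map3k1*, which rose in AKT Cre/NRAS and fell in AKT/NRAS, was 0.92 (SE 0.16, limma adjusted p = 0.00201). It was 0.51 for *Mapk9* (limma adjusted p = 0.00385), 0.47 for *Map3k5* (limma adjusted p = 0.0172), 0.41 for *Map2k4* (limma adjusted p = 0.0121) and -0.37 for *Mapk8* (limma adjusted p = 0.0459). *Map2k6* had a term of -0.03 (95% confidence interval -0.27 to 0.20) and *Map3k13* one of -0.16 (95% confidence interval -0.42 to 0.10). The term of *Map3k1* was positive in all 7 scalings run for it and passed in 6, with the deposited values as the exception. The negative term of *Mapk8* passed in 4 of 7 scalings, was positive with the 5 reference genes ranked first (0.11), and kept its call in only 2 of 12 fits that left out 1 library each.

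**Figure D2:**
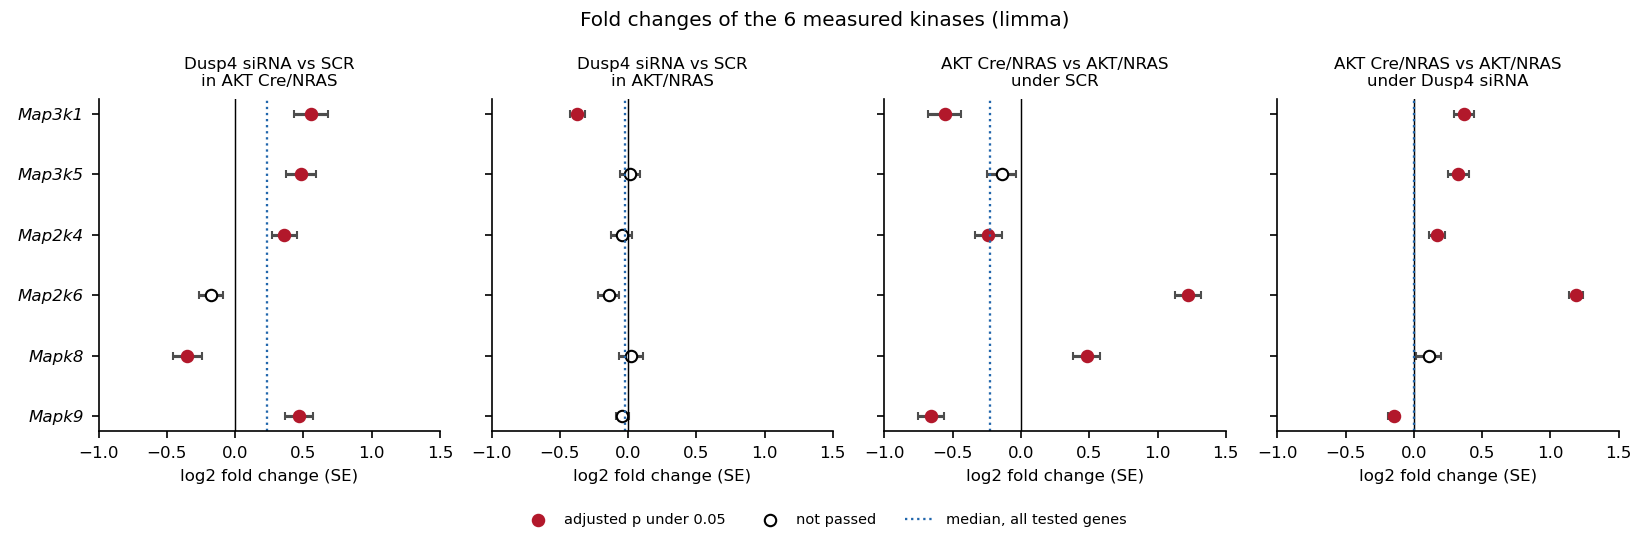
Log2 fold changes with standard errors (x axis) of the 6 kinases above the floor in the 4 comparisons, filled where the limma adjusted p is under 0.05, with the median of all tested genes as a dotted line. *Map3k1* is at 0.55 in AKT Cre/NRAS and at -0.37 in AKT/NRAS after *Dusp4* silencing, and *Map2k6* is at 1.22 and 1.19 between the lines.

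The lines themselves were compared under each treatment. *Map2k6*, the p38 kinase kinase, was higher in AKT Cre/NRAS under both treatments, by 1.22 on the log2 scale under SCR and 1.19 after siRNA. Under SCR, *Mapk8* was also higher in AKT Cre/NRAS, and *Map3k1*, *Map2k4* and *Mapk9* were lower. Under SCR, 5 of 7 tested kinases differed (2 higher, 3 lower), against 76.9% of 515 genes on the panel (28.9% higher and 48.0% lower), and 5 of 7 did not overlap, against 79.8% of genes. These comparisons share their libraries with the siRNA comparisons above. The *Rpl19* to *Polr2a* log2 ratio was also higher in every AKT Cre/NRAS library than in any AKT/NRAS library, under SCR and after siRNA. The line and this ratio cannot be told apart here, and the part of the ratio in the differences was not tested.

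*Map2k6* averaged 2466 ± 177 normalized counts in AKT Cre/NRAS and 1058 ± 97.4 in AKT/NRAS under SCR (SD, n = 3 each), a log2 fold change of 1.22 (SE 0.09, limma adjusted p = 4.92e-06), or 2.33-fold. *Mapk8* averaged 523 ± 59.9 in AKT Cre/NRAS SCR libraries and 373 ± 6.69 in AKT/NRAS SCR libraries (SD, n = 3 each), a log2 fold change of 0.48 (limma adjusted p = 0.00211). For *Mapk9* the order was the other way, with 551 ± 56.9 in AKT Cre/NRAS and 869 ± 52.2 in AKT/NRAS (SD, n = 3 each) and a log2 fold change of -0.66 (limma adjusted p = 0.000296). *Map3k1* averaged 1112 ± 198 in AKT Cre/NRAS and 1621 ± 27.7 in AKT/NRAS (SD, n = 3 each), a log2 fold change of -0.56 (limma adjusted p = 0.00280). *Map2k4* was at 491 ± 22.6 in AKT Cre/NRAS and 581 ± 59.1 in AKT/NRAS (SD, n = 3 each), and its difference of -0.24 (limma adjusted p = 0.0479) was near the panel median of -0.22 and lost its call when any 1 of the 6 libraries was left out. *Map3k5* overlapped between the lines, with a log2 difference of -0.14 (95% confidence interval -0.38 to 0.10).

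Across 8 scalings the SCR difference of *Map2k6* passed in all 8, at 0.70 to 1.73, that of *Mapk9* in 7 and that of *Map3k1* in 6, each with its sign kept. The order of sizes was not kept, since reference genes chosen within the comparison put *Map2k6* at 0.70, *Mapk9* at -1.18 and *Map3k1* at -1.08. Without AKT Cre/NRAS SCR replicates 2 and 3 the difference of *Map3k1* was -0.29 (limma adjusted p = 0.00409). *Mapk8* passed in 5 and turned to -0.04 with reference genes chosen within the comparison, and *Map2k4* and *Map3k5* changed sign in 3 and 4 scalings.

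After *Dusp4* siRNA the lines were again apart in *Map2k6*, and the MAP3Ks were now higher in AKT Cre/NRAS. In all, 5 of 7 tested kinases differed (4 higher, 1 lower), against 74.5% of 522 genes (36.6% higher and 37.9% lower), and 5 of 7 did not overlap, against 76.6% of genes. *Map2k6* averaged 2179 ± 72.1 in AKT Cre/NRAS siRNA libraries and 956 ± 54.9 in AKT/NRAS siRNA libraries (SD, n = 3 each), a log2 fold change of 1.19 (SE 0.05, limma adjusted p = 5.44e-07). *Map3k1* averaged 1617 ± 117 in AKT Cre/NRAS and 1256 ± 101 in AKT/NRAS (SD, n = 3 each), with a log2 fold change of 0.36 (limma adjusted p = 0.00297). *Map3k5* averaged 592 ± 46.3 in AKT Cre/NRAS and 472 ± 37.1 in AKT/NRAS (SD, n = 3 each), with a log2 fold change of 0.33 (limma adjusted p = 0.00707).

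*Map2k4*, at 631 ± 31.1 in AKT Cre/NRAS and 561 ± 26.4 in AKT/NRAS (SD, n = 3 each), was higher by 0.17 (limma adjusted p = 0.0276). *Mapk9*, at 760.3 ± 34.7 in AKT Cre/NRAS and 843 ± 4.96 in AKT/NRAS (SD, n = 3 each), had a log2 fold change of -0.15 (limma adjusted p = 0.0167). *Mapk8* overlapped, at 409 ± 15.4 in AKT Cre/NRAS and 381 ± 46.7 in AKT/NRAS (SD, n = 3 each), a log2 difference of 0.11 (95% confidence interval -0.11 to 0.33). The differences of *Map2k6*, *Map3k1* and *Map3k5* passed in all 8 scalings, that of *Mapk9* in 5 and that of *Map2k4* in 4. *Map2k4* also lost its call in 4 of 6 fits without 1 library, those without AKT Cre/NRAS siRNA replicate 1 or 3 or AKT/NRAS siRNA replicate 2 or 3, with log2 fold changes of 0.13 to 0.20 over the 6 fits.

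**Figure D3:**
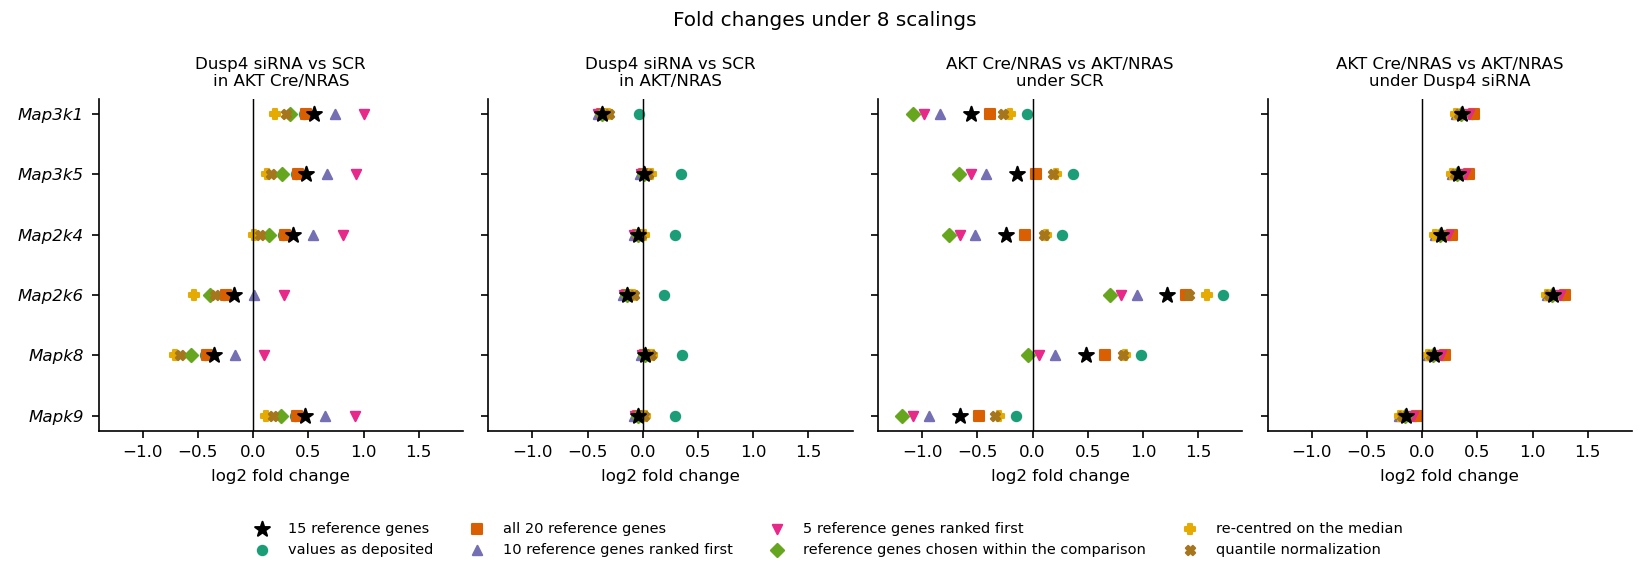
Log2 fold changes (x axis) of the 6 kinases in the 4 comparisons under 8 scalings, with the 15 reference genes as a black star. *Map2k6* stays between 0.70 and 1.73 in the SCR comparison of the lines, while *Mapk8* after siRNA in AKT Cre/NRAS runs from -0.71 to 0.10.

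A ratio of the counts of a pair of genes within a library does not depend on how the library was scaled. The ratios were chosen after the values had been seen, and because the probes differ, a ratio is comparable between libraries and does not give the ratio of the transcripts. *Mapk8* over *Mapk9* was 0.530, 0.499 and 0.588 in AKT Cre/NRAS siRNA libraries and 0.782, 0.909 and 1.20 in AKT Cre/NRAS SCR libraries. It was 0.505, 0.452 and 0.399 in AKT/NRAS siRNA libraries and 0.423, 0.416 and 0.451 in AKT/NRAS SCR libraries. The AKT Cre/NRAS SCR libraries thus had the highest JNK1 to JNK2 ratios, and the siRNA libraries of that line lay below them. Within AKT Cre/NRAS SCR the library order was that of the *Rpl19* to *Polr2a* log2 ratio, at 5.48, 6.36 and 6.88, and the part of that ratio was not tested. The log2 ratio was lower by 0.82 after siRNA in AKT Cre/NRAS without overlap, and it differed by 0.07 in AKT/NRAS with overlap. Exact two-sided permutation tests gave p = 0.1 and p = 0.6, and 0.1 is the smallest p that 3 samples against 3 allow.

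*Map2k6* over *Map2k4*, the p38 kinase kinase over the one shared with JNK, was 3.40, 3.56 and 3.40 in AKT Cre/NRAS siRNA libraries and 4.75, 4.75 and 5.59 in AKT Cre/NRAS SCR libraries. It was 1.53, 1.89 and 1.71 in AKT/NRAS siRNA libraries and 1.73, 2.06 and 1.69 in AKT/NRAS SCR libraries. The ratio was thus higher in every AKT Cre/NRAS library than in any AKT/NRAS library, by 1.02 on the log2 scale after siRNA and by 1.46 under SCR (exact two-sided permutation p = 0.1 for each). *Map3k1* over *Map3k5* fell by 0.38 on the log2 scale after siRNA in AKT/NRAS, with 2.70, 2.65 and 2.63 in siRNA libraries against 3.32, 3.65 and 3.46 in SCR libraries (exact two-sided permutation p = 0.1). In AKT Cre/NRAS it was 2.64, 2.90 and 2.67 after siRNA and 2.82, 2.54 and 2.45 after SCR, with overlap (exact two-sided permutation p = 0.4). The 12 ratio comparisons had a smallest p of 0.1, so none passes 0.05 before or after adjustment.

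**Figure D4:**
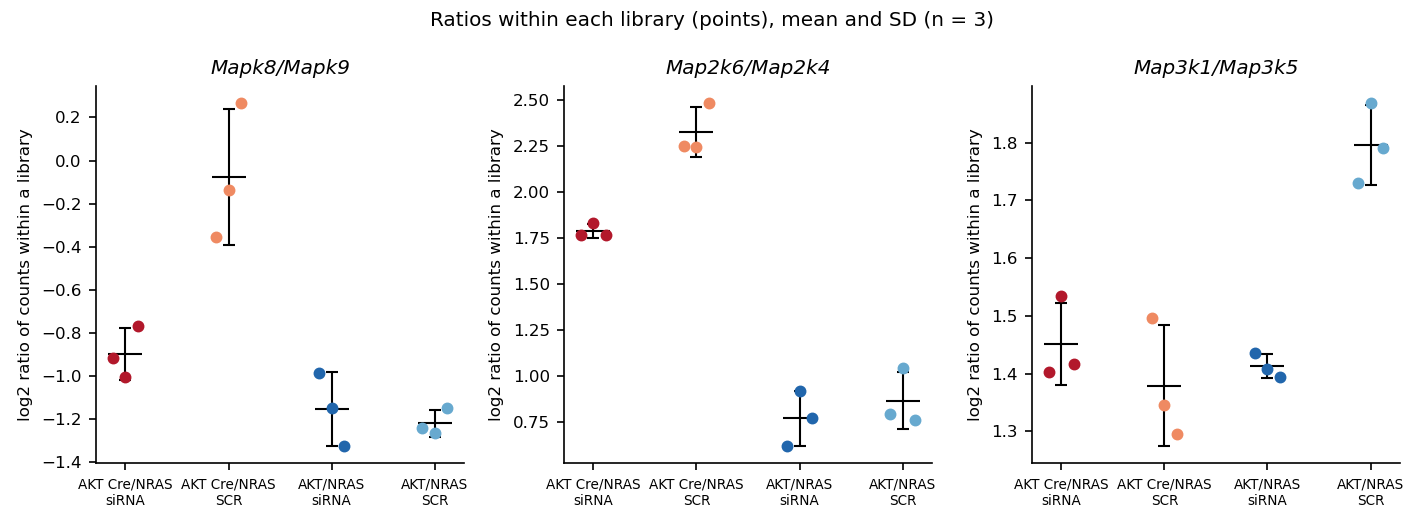
Log2 ratios (y axes) of *Mapk8* to *Mapk9*, *Map2k6* to *Map2k4* and *Map3k1* to *Map3k5* within each of the 12 libraries, with the mean and SD (n = 3) of each group. The *Mapk8* to *Mapk9* points of AKT Cre/NRAS SCR lie above those of the other 3 groups, and the *Map2k6* to *Map2k4* points of both AKT Cre/NRAS groups lie above those of AKT/NRAS.

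The promoters of *Mapk8* and *Mapk9*, whose fold changes after siRNA in AKT Cre/NRAS had opposite signs in 7 of 8 scalings, and of *Map2k6*, which was higher in AKT Cre/NRAS in every scaling, are shown to set their sequences side by side. All 10 kinases had at least 1 window in the RefSeq table of build GRCm38.p6, which holds 250 bases before to 50 after each annotated start. The windows below are the first listed for each gene, at chr14:33447109-33447408 on the minus strand for *Mapk8*, at chr11:49846501-49846800 on the plus strand for *Mapk9* and at chr11:110398852-110399151 on the plus strand for *Map2k6*. Capitals mark matches on either strand to the GC box (GGGCGG), the core of the cAMP response element (CRE core, TGACG), the CCAAT box (CCAAT), the TATA box (TATAAA) and the AP-1 site (TGANTCA), and no letter of these windows belongs to more than 1 match.
Mapk8: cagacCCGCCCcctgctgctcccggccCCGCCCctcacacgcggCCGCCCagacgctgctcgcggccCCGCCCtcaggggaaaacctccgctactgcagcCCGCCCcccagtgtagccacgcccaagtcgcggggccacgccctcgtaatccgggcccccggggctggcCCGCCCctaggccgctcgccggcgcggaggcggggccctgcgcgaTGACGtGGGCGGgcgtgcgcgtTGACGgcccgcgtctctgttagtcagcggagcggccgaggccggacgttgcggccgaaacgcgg
Mapk9: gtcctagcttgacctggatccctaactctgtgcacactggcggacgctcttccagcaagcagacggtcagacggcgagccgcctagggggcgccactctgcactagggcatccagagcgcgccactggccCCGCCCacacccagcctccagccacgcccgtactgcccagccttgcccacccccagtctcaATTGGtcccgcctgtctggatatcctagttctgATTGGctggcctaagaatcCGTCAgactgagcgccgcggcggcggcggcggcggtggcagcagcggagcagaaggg
Map2k6: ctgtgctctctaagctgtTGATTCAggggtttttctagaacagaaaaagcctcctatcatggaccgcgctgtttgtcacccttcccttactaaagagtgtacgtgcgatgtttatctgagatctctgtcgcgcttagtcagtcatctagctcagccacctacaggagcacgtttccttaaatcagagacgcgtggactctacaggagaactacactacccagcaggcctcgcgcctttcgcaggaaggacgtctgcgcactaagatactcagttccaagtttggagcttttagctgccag
The *Mapk8* window held 7 GC boxes and 2 CRE cores and had 77.7% G and C, against a median of 52.7% over all windows. The *Mapk9* window held 1 GC box, 1 CRE core and 2 CCAAT boxes at 66.7% G and C. The *Map2k6* window held 1 AP-1 match and none of the other motifs, and its share of G and C was below that median. Of 32851 windows of this length, 35.7% held the GC box, 20.8% the CRE core, 37.4% the CCAAT box, 13.6% the TATA box and 7.81% the AP-1 site. A match describes these letters only. *Mapk8* has 1 further window in the table and *Map2k6* has 2, and which start is used in these cells was not measured.

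The other genes of the pathway were taken from lists of upstream inputs and scaffolds, other stress cascade kinases, phosphatases, targets and the parallel ERK arm. Among the inputs, 9 of 12 tested genes were lower and 1 was higher in AKT Cre/NRAS than in AKT/NRAS under SCR (panel 48.0% lower and 28.9% higher), with a median of -0.53 against -0.22 for all tested genes. The values named next are log2 fold changes of AKT Cre/NRAS over AKT/NRAS under SCR. They were -3.56 for *Flnc*, an actin-binding filamin, -2.68 for *Gadd45b*, a stress-induced protein that binds kinases of these cascades, and -1.50 for *Tgfbr1*, a TGF-beta receptor (limma adjusted p = 5.93e-07, 4.43e-08 and 1.33e-06). *Pak3*, a kinase downstream of Rac, was the gene that was higher, and it was at the floor in all AKT/NRAS libraries and at 78.9 ± 13.8 in AKT Cre/NRAS SCR libraries (SD, n = 3).

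Of 13 other kinases of the stress cascades, only *Map3k7* was in the table. It encodes TAK1, a MAP3K of cytokine signalling, and averaged 243 ± 26.4 in AKT Cre/NRAS and 537 ± 16.5 in AKT/NRAS under SCR (SD, n = 3 each), a log2 fold change of -1.15 (limma adjusted p = 1.24e-05). After siRNA the difference was -1.06 (limma adjusted p = 2.13e-06), while siRNA against SCR gave a log2 difference of 0.07 in AKT Cre/NRAS and -0.02 in AKT/NRAS, neither past the threshold. *Map3k7* was thus lower in AKT Cre/NRAS while *Map3k1* and *Map3k5* were higher there after siRNA.

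Among 10 tested targets, 5 were lower and 2 higher in AKT Cre/NRAS under SCR, near the panel shares of 48.0% lower and 28.9% higher. *Jun*, the transcription factor that JNK phosphorylates and is named after, averaged 152 ± 23.0 in AKT Cre/NRAS and 1599 ± 75.1 in AKT/NRAS under SCR (SD, n = 3 each), a log2 fold change of -3.40 (limma adjusted p = 4.40e-08). Its AP-1 partner *Fos* averaged 49.0 ± 6.20 in AKT Cre/NRAS and 263 ± 6.73 in AKT/NRAS under SCR (SD, n = 3 each), a log2 fold change of -2.41 (limma adjusted p = 3.41e-07). *Ddit3*, which encodes the stress factor CHOP, a substrate of p38, was higher, at 3272 ± 284 in AKT Cre/NRAS and 1264 ± 73.3 in AKT/NRAS (SD, n = 3 each). *Rps6ka5*, which encodes MSK1, a kinase activated by p38 and ERK, was lower by 1.35 on the log2 scale. *Jun*, *Fos*, *Ddit3*, *Map3k7*, *Gadd45b*, *Flnc* and *Tgfbr1* passed in all 8 scalings with the same sign, under SCR and after siRNA alike.

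After *Dusp4* siRNA in AKT/NRAS, 3 of 10 tested targets fell and 1 rose (panel 11.9% down and 5.44% up). The log2 fold changes were -0.48 for *Fos*, -0.35 for *Jun* and -0.48 for *Ddit3* (limma adjusted p = 0.00816, 0.00916 and 0.0188), and each passed in 7 of 8 scalings. The rise was that of *Trp53*, by 0.19 (limma adjusted p = 0.0190), and it passed in 8 of 8. In AKT Cre/NRAS, 4 of 10 targets rose and 2 fell (panel 40.6% up and 5.37% down). Among the rises were *Myc* at 0.40, *Trp53* at 0.44 and *Cdc25b* at 0.42 on the log2 scale (limma adjusted p = 0.0175, 0.0177 and 0.0295). They passed in 4, 5 and 3 of 8 scalings. *Ddit3* fell by 0.49 on the log2 scale (limma adjusted p = 0.00624, passed in 5 of 8 scalings), while *Jun* had a log2 difference of 0.35 and *Fos* one of 0.16, neither past the threshold (limma adjusted p = 0.0629 and 0.421). The interaction term was positive for *Jun*, at 0.70 (limma adjusted p = 0.00486, passed in 5 of 7 scalings), and for *Fos*, at 0.64 (limma adjusted p = 0.0155, passed in 4 of 7).

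Of 6 phosphatases in the table, 5 were tested, and all 5 differed between the lines under SCR, as did 76.9% of the panel. *Dusp4*, *Dusp5* and *Dusp6* were higher in AKT Cre/NRAS by 2.16, 1.62 and 1.05 on the log2 scale, *Dusp5* and *Dusp6* being phosphatases of ERK. *Dusp10* and *Dusp8*, the second named after its values had been seen, are phosphatases that prefer JNK and p38 and had log2 fold changes of -1.01 and -1.31 (limma adjusted p = 1.64e-06 and 3.09e-05). After siRNA in AKT/NRAS 3 of the 5 fell (panel 11.9%), a count that includes *Dusp4*, the target of the siRNA, at -1.73 on the log2 scale. The others were *Dusp10*, with a log2 fold change of -0.41 (limma adjusted p = 0.00161), and *Dusp5*, with one of -0.50 (limma adjusted p = 0.0345). In AKT Cre/NRAS 3 rose, and the only fall was that of the target *Dusp4* (panel 40.6% up and 5.37% down). Of the rises, *Dusp5* was at 0.67 on the log2 scale and passed in 7 of 8 scalings. *Dusp6* was at 0.29 and *Dusp10* at 0.22, each passed in 3 of 8, and they were positive in 7 and 6 of 8. A fall of the target was set by the experiment and is no result about the phosphatases. The interaction term of *Dusp10* was 0.63 (limma adjusted p = 0.000728). Positive terms past the threshold were common on the panel (40.6% of genes, against 4.76% negative).

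Of the inputs, 6 of 12 rose after siRNA in AKT Cre/NRAS and 1 fell (panel 40.6% up and 5.37% down), with a median of 0.28 against 0.23 for all tested genes. *Tgfbr2*, a TGF-beta receptor, rose by 0.46 and *Flna*, a filamin, by 0.63 on the log2 scale (limma adjusted p = 0.00355 and 0.00631), and *Gadd45a*, a relative of *Gadd45b*, fell by 0.40 (limma adjusted p = 0.0138), though it was at 0.056 with the 5 reference genes ranked first. In AKT/NRAS 1 of 11 rose and 2 fell (panel 5.44% up and 11.9% down). The ERK arm, set beside the stress kinases, had 2 rises and no fall among 6 tested genes in AKT Cre/NRAS and 1 fall among 7 in AKT/NRAS, against the same panel shares. The rises were those of *Map2k2* and *Mapk3*, which encodes ERK1, and each passed in 3 of 8 scalings. Between the lines under SCR the ERK arm had 3 lower genes of 6 (panel 48.0%), among them *Braf* with a log2 fold change of -1.12 (limma adjusted p = 8.27e-06) and *Mapk3* with one of -1.02 (limma adjusted p = 0.000177).

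**Figure D5:**
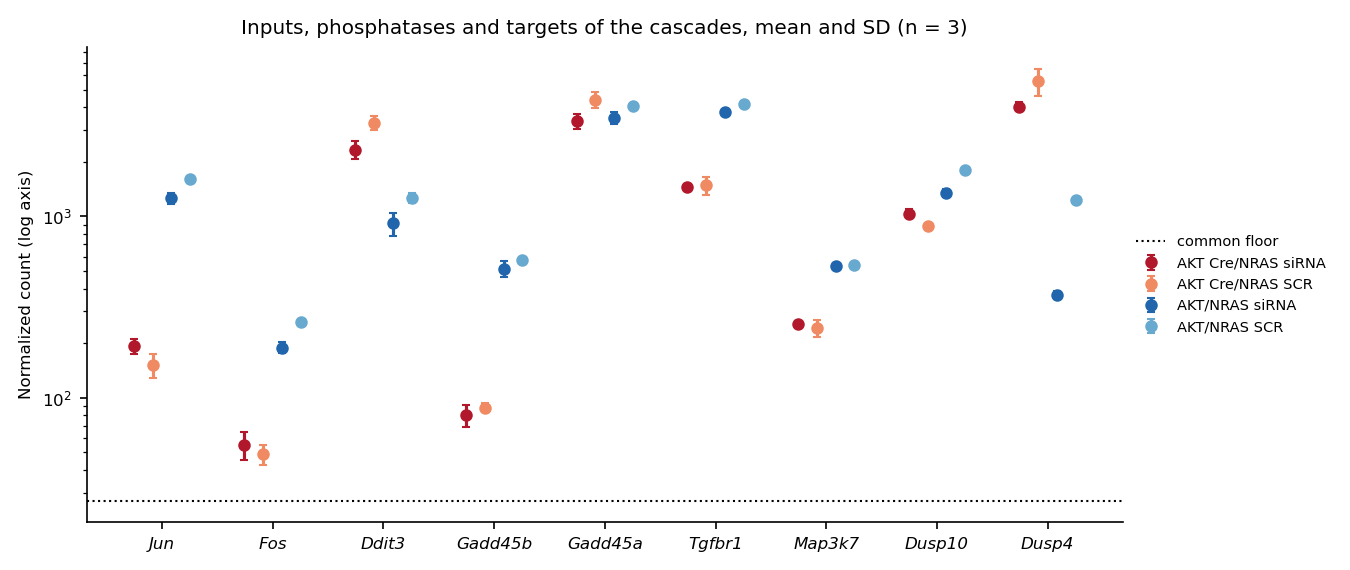
Group means with SD (n = 3) of inputs, phosphatases and targets of the cascades, in normalized counts on a log axis, with the common floor of 27.1 as a dotted line. *Jun*, *Fos*, *Gadd45b*, *Tgfbr1* and *Map3k7* are lower in both AKT Cre/NRAS groups, and *Ddit3* and *Dusp4* are higher.

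The patterns of the 6 kinases over the 12 libraries were set against those of the 446 genes that were above the floor in all of them, as a description of libraries that fall into 4 groups. The closest gene to *Mapk9* was *Sin3a* (Pearson r = 0.99), to *Map2k6* it was *Pold4* (0.99), to *Map3k5* *Pbrm1* (0.93), to *Mapk8* *Alkbh3* (0.93), to *Map3k1* *Whsc1* (0.91) and to *Map2k4* *Whsc1l1* (0.85). The 6 kinases thus had 6 different nearest genes, but their further close genes were not all distinct. *Ptch1* was among the closest genes of both *Map3k1* (Pearson r = 0.89) and *Map2k4* (0.83). *Hprt*, close to *Mapk8* (0.90), and *Abcf1*, close to *Mapk9* (0.98), were reference genes kept for the scaling. The part of the scaling in these correlations was not tested. From the lowest to the highest library, *Map2k6* spanned 2.93-fold, *Mapk9* 1.86-fold, *Map3k1* 1.84-fold, *Mapk8* 1.76-fold, *Map3k5* 1.70-fold and *Map2k4* 1.40-fold.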

How the data were processed

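Total RNA of 12 cell culture samples was counted with the nCounter Mouse PanCancer Pathways panel of 770 genes, with 6 positive and 8 negative controls. The authors used nSolver 4.0. What they deposited is a signal for each gene, which from the values is its barcode count times 1 factor per library that follows the positive controls (0.827 to 1.27), with values at or under 20 set to 20. The methods also name scaling to automatically chosen reference genes, which these values do not carry. It was completed with geNorm over all libraries, which kept 15 of 20 reference genes. A common floor of 27.1 was then set and 1 was added before log2. Because 252 to 293 genes per library stand at the floor with unknown counts, no count model was fitted.

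Genes above the floor in at least 1 library of a comparison entered limma 3.58.1 under R 4.3.3, in which lmFit was followed by eBayes with its trend option, and Benjamini-Hochberg adjustment over all of them, with a threshold of 0.05, on the groups of that comparison only. The methods name the Benjamini-Yekutieli adjustment, which was an alternative. The limma fits were tested on data simulated from the scaled values. The scaling and the filter on the floor were not part of that test. Intervals from limma are at 95% and are not adjusted. Precision falls with the number of barcodes, which was 315 to 2739 per library for the 6 measured kinases, and is lowest near the floor. The other alternatives were 7 scalings, other filters, a pseudocount of 10, the replicate block and leaving out each library. Fitting AKT Cre/NRAS without SCR replicates 2 and 3 was added after the data had been seen.

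Replicate numbers were checked for pairing. Same-numbered siRNA and SCR libraries of AKT Cre/NRAS deviated together weakly, with correlations of 0.21, 0.11 and 0.23. The numbers were therefore taken to pair those samples, by the rule that every pair exceeds 0.1. Libraries with different numbers ran from -0.29 to 0.089, so the margin was small. The main fits had no block. The source is this check, since no label ties the numbers to a day or batch.

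The choice of kinases, lists and naming rule was made with earlier results of these data known. All 10 kinases are named, further genes are up to 4 of a list with the smallest p in a comparison, and each kinase above the floor has its most correlated gene named. Promoters come from RefSeq, build GRCm38.p6. Plots come from matplotlib 3.10.9 (Python 3.11.15).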

Additional observations from a re-analysis of the deposited data

Results flagged for a closer look

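The response to *Dusp4* siRNA differed between the lines for 5 kinases, by the interaction term of limma over all 12 libraries. The term was 0.92 for *Map3k1* (limma adjusted p = 0.00201), which rose in AKT Cre/NRAS (0.55) and fell in AKT/NRAS (-0.37), 0.51 for *Mapk9* (limma adjusted p = 0.00385), 0.47 for *Map3k5* (limma adjusted p = 0.0172), 0.41 for *Map2k4* (limma adjusted p = 0.0121) and -0.37 for *Mapk8* (limma adjusted p = 0.0459). Of all tested genes 45.3% had such a term past the threshold, and the panel median was 0.25. The terms of *Mapk9*, *Map3k5*, *Map2k4* and *Mapk8* passed in 4 of 7 scalings each, and that of *Map3k1* in 6. The term of *Mapk8* kept its call in only 2 of 12 fits that left out 1 library each. The silencing itself was unequal, with a log2 fold change of *Dusp4* of -0.45 in AKT Cre/NRAS and -1.73 in AKT/NRAS. *Dusp4* averaged 4023 after siRNA in AKT Cre/NRAS, above its 1228 under SCR in AKT/NRAS. The part of this difference in the kinase terms was not tested. The log2 ratio of *Rpl19* to *Polr2a* set the AKT Cre/NRAS SCR libraries apart. It was also higher after siRNA in AKT Cre/NRAS than in AKT/NRAS. Its part in these terms was not tested.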

How the results depend on the processing

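After siRNA in AKT Cre/NRAS, 5 kinases passed the test, and the number was 0 with the deposited values (0 at an unadjusted p under 0.05), 2 after re-centring, 1 with quantile scaling, 2 with no filter, 1 with Benjamini-Yekutieli (*Mapk9*) and 2 to 6 without single libraries. In AKT/NRAS the number was 1, and it was 5, all up, with the deposited values, 0 with 1 fit over all 4 groups or with Benjamini-Yekutieli (1 at an unadjusted p under 0.05 in both), and 1 to 2 without single libraries, the second being *Map2k6* without SCR replicate 3. Between the lines it was 5 under SCR, 2 with the deposited values and 4 without any single library, and 5 after siRNA, 3 with 1 fit over all groups or Benjamini-Yekutieli and 4 to 5 without single libraries. The interaction called 5, and it called 0 with the deposited values (2 at an unadjusted p under 0.05), 3 after re-centring, 2 with quantile scaling, 2 with Benjamini-Yekutieli, 3 without AKT Cre/NRAS SCR replicates 2 and 3 together, a fit chosen after seeing the data, and 4 to 5 without single libraries. With the replicate number as a block the counts were 5 and 1 for the siRNA comparisons, 4 under SCR and 5 after siRNA between the lines, and 4 for the interaction. The block ended the calls of *Map2k4* under SCR (limma adjusted p = 0.0572) and of *Mapk8* in the interaction (limma adjusted p = 0.0659) and changed no other call of a kinase. Outside AKT Cre/NRAS the numbers did not pair the samples by the same check, with correlations from -0.06 to 0.21.

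Signs of log2 fold changes turned as follows, and the cause was not tested. After siRNA in AKT Cre/NRAS, *Map2k6* was at 0.0090 with 10 reference genes and at 0.28 with 5, and *Mapk8* at 0.10 with 5. In AKT/NRAS the deposited values gave 0.29 for *Map2k4*, 0.19 for *Map2k6* and 0.29 for *Mapk9*, 10 reference genes gave -0.023 for *Map3k5* and -0.013 for *Mapk8*, 5 gave -0.018 for *Map3k5* and -0.0081 for *Mapk8*, re-centring gave 0.011 for *Map2k4* and 0.015 for *Mapk9*, and quantile scaling 0.014 for *Mapk9*. Without single libraries *Mapk8* ran from -0.065 (without siRNA replicate 1) to 0.11, *Map3k5* from -0.049 (without siRNA replicate 2) to 0.058, also below 0 without SCR replicate 2, and *Map2k4* from -0.10 to 0.035 (without SCR replicate 1). Between the lines under SCR, *Map3k5* and *Map2k4* were at 0.36 and 0.27 with the deposited values, 0.22 and 0.12 after re-centring and 0.19 and 0.10 with quantile scaling. *Map3k5* was at 0.031 with all 20 reference genes and at 0.0040 without AKT Cre/NRAS SCR replicates 2 and 3, and *Mapk8* was at -0.040 with reference genes chosen within the comparison. In the interaction, *Map2k4* was at -0.015 with the deposited values and -0.0053 after re-centring, *Map2k6* at 0.19 with 10 and 0.45 with 5 reference genes, at 0.067 without AKT Cre/NRAS SCR replicates 2 and 3 and between -0.084 and 0.045 without single libraries, being positive without AKT/NRAS siRNA replicate 2, AKT/NRAS SCR replicate 3 or AKT Cre/NRAS SCR replicate 3, and *Mapk8* at 0.11 with 5.

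On the whole panel, 231 genes were called after siRNA in AKT Cre/NRAS (204 up, 27 down), with 1 under the deposited values, 100 with reference genes chosen within the comparison, 256 with 10 reference genes (252 up, 4 down), 255 with 5 (254 up, 1 down), 168 after re-centring (32 up, 136 down), 90 with quantile scaling (52 up, 38 down), 56 with no filter, 70 with Benjamini-Yekutieli, 110 without SCR replicates 2 and 3, and 99, 121, 118 and 131 without siRNA replicate 1, 2 or 3 or SCR replicate 2. In AKT/NRAS the 86 calls (27 up, 59 down) became 290 with the deposited values (287 up, 3 down), 45 with no filter, 23 with 1 fit, 10 with Benjamini-Yekutieli, and 39, 49 and 44 without siRNA replicate 3, SCR replicate 1 or SCR replicate 2. The split was 47 up and 41 down after re-centring, 46 and 39 with quantile scaling, 18 and 87 with 10 reference genes and 22 and 88 with 5. Between the lines under SCR the split of 149 up and 247 down became 202 and 99 with the deposited values 224 and 181 after re-centring, 97 and 281 with 10 reference genes, 69 and 256 with 5 and 59 and 259 with reference genes chosen within the comparison. The interaction's 238 calls (213 positive, 25 negative) became 32 with the deposited values (2 and 30), 50 positive and 151 negative after re-centring, 98 and 92 with quantile scaling, 305 and 1 with 5 reference genes, and 101 with Benjamini-Yekutieli. Changes below the floor were not detectable.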
